A study of Rattus norvegicus with 10 samples.

Results

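The ribosomal protein genes of rat liver were followed through the first day after a burn. They were taken as every probe set whose single gene symbol in the probe table of the array is Rpl or Rps followed by a digit, Rpsa, or Rplp followed by a digit, leaving out the Rps6k kinases. This gave 64 of the 8799 probe sets, for 44 gene symbols, of which 30 belong to the large and 14 to the small subunit of the ribosome. A probe set is a group of short probes that reports 1 transcript, and 17 of the 44 symbols had more than 1. A further 40 probe sets carried several symbols of which at least 1 fits the same naming, and they were not counted as members.

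The series measured liver RNA of sham rats, labelled 0 h, and of rats 1, 4, 8 and 24 h after a burn, on 10 arrays, 2 for each group. Strain, sex, age, burn area and anaesthesia are not given in the labels. The species and the organ are all that is known to be shared by all groups. Nothing in the labels tells if both arrays of a time point hold RNA of different rats, of a pool or of 1 rat. The p-values below therefore rest on array-to-array spread that may be technical. In whole liver, fewer cells of a type and less RNA per cell cannot be told apart.

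A ribosome is built from ribosomal RNA and many different proteins, each of which sits at a fixed place in the large or the small subunit. The genes for these proteins are among the most strongly transcribed in any dividing or secreting cell, and most of their mRNAs begin with a run of pyrimidines through which growth signals control their translation. The liver makes most plasma proteins, including those of the acute phase response to injury, and so holds many ribosomes.

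The start regions of the genes show which sequence features the members share. Of the 44 symbols, 43 matched a RefSeq gene and 37 had an entry in the RefSeq promoter table (build GRCr8). No promoter was listed there for Rpl19l4, Rpl27, Rpl30, Rps2-ps1, Rps29, Rps4x-ps9 and Rps9. The letters CTTTCC, part of the pyrimidine run, were searched on the coding strand within 25 bases on either side of the start. They stood in 12 of the 37 members (32.4%) and in 2.19% of all 33469 promoters. CCGGAAG, the core read by ETS factors such as GABP, was searched on both strands over all 300 bases of each promoter and was found in 9 of 37 members (24.3%) against 8.75% of all promoters. AAGATGG, the reverse complement of the core of YY1 sites, was found on either strand in 8 of 37 (21.6%) against 7.01%. Its letters include ATG, and whether a match holds the codon at which translation starts was not tested. Those last 2 motifs can share their letters AAG, which happened in 6 promoters of the whole table. A match describes letters only, and the start used in these livers was not measured.

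The windows below run from 100 bases before the listed start to 20 bases from it on, 5′ to 3′ on the strand of the gene, with matches to the 3 motifs in capitals. Rpl13a and Rps16 were higher at 24 h than in sham and Rps3 was higher at 24 h than at 8 h. Rpl3 had the largest increase and holds no match. Rpl31 holds the most matches, and Rpl41 was lower at 24 h than at 8 h. Rpl22 was among the flattest members.
Rpl13a (chr1:104748894-104749013, minus strand): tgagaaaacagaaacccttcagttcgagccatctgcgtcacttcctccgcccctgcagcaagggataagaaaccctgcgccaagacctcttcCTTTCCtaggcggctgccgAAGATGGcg
Rps16 (chr1:92770558-92770677, plus strand): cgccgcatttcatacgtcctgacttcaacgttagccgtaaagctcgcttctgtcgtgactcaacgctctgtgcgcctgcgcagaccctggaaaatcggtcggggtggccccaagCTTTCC
Rps3 (chr1:163195757-163195876, minus strand): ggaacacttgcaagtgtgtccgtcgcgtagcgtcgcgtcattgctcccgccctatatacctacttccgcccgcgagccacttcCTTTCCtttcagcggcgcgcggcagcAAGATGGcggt
Rpl3 (chr7:113507971-113508090, minus strand): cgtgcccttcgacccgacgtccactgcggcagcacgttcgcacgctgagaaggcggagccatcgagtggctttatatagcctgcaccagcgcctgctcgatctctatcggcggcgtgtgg
Rpl31 (chr9:49143011-49143130, plus strand): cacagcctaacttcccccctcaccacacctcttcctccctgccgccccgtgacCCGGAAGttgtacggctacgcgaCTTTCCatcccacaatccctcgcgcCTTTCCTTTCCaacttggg
Rpl41 (chr7:1563478-1563597, minus strand): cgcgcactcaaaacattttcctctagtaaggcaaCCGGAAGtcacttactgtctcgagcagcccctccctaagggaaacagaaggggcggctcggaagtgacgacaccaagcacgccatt
Rpl22 (chr5:168117861-168117980, plus strand): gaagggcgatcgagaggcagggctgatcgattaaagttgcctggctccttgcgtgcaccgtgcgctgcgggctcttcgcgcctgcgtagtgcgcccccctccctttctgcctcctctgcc
CTTTCC lies around the start in Rpl13a, Rps16, Rps3 and Rpl31, and not in the windows of Rpl3, Rpl41 or Rpl22. Among the 8 genes higher at 24 h than in sham, 2 held CTTTCC, 2 held CCGGAAG and 1 held AAGATGG, and among the 28 other tested genes with a promoter 10, 7 and 7 did. These shares are descriptions, and no motif was tested against the changes.

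The values are deposited intensities on a linear scale, already brought to a common trimmed mean of 500.91 to 501.04 on every array. Values under 36.4 were raised to that floor and log2 values were fitted with limma over all 10 arrays. A probe set was tested when it lay above the median of its array on at least 2 arrays, which left 5254 probe sets of the series and 60 of the 64 members, for 42 symbols. It is called higher or lower here when its Benjamini-Hochberg adjusted p over all 5254 was under 0.05. Of the 60 tested members, 59 lay above the median of every array, so the filter did not choose them by a change. Not tested were 1 of the 2 probe sets of Rpl3l, the form of Rpl3 known from muscle, Rplp1l3 and both probe sets of the pseudogene Rps2-ps1. Their highest value on any array was 134 for Rpl3l, 48.5 for Rplp1l3 and 88.9 for Rps2-ps1.

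Arrays of 1 group correlated at 0.9478 or more and arrays of different groups at 0.9404 or less, over log2 values of the tested probe sets. The median difference between the arrays of a group was 0.11 to 0.18 (log2) over the members and 0.25 to 0.29 over all tested probe sets. The level at the 98th percentile was 9886.8 and 9717 on the 24 h arrays and 8742 to 9626 on the others. Dividing each array by its bacterial control transcripts, a scaling added after the data were seen, moved the median log2 change of all tested probe sets from -0.03 to 0.41 at 4 h, from -0.10 to -0.72 at 8 h and from -0.05 to -0.26 at 24 h. Changes are given as deposited unless that scaling is named, and each should be read against these shifts. Summed intensity of 12 hepatocyte markers was 331060 to 381620 in sham and 346280 to 370020 at 24 h, and none of them was at the floor on any array. The summed intensity of 19 genes of pancreatic acinar cells was 11108 to 11417 in sham, 48616 to 51576 at 1 h, 2742 to 2810 at 4 h, 15113 to 15231 at 8 h and 2621 to 3141 at 24 h. Prss1, a defining trypsinogen, read 1040.3 and 1039 in sham, and at 24 h its arrays read 3.5 and 13.2.

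At 24 h the ribosomal proteins stood higher as a group. Of the 60 tested probe sets 8 were called higher than sham (13.3%) and 0 lower, beside 3.96% called higher and 6.4% called lower among all tested probe sets. An unadjusted p under 0.05 was found for 26 members, against 25.7% of all tested. Their median log2 change was 0.39, with an interquartile range of 0.22 to 0.56, and 55 of 60 were above 0, where the median of all tested probe sets was -0.05 and 46.5% were above 0. In 48 members both 24 h arrays lay above both sham arrays, in 2 both lay below, and in 10 the groups overlapped. Among all tested probe sets 24.5% had both 24 h arrays above and 29.3% had both below. Both 24 h arrays lay above all 8 other arrays in 36 of 60 members (60%) and in 492 of 5254 tested probe sets (9.36%). The largest increase was 2.2-fold. In the same comparison 10 of 18 tested pancreatic acinar genes were called lower, 1 of 12 hepatocyte and 1 of 6 bile duct markers were called higher, and 1 of 7 Kupffer cell and 1 of 5 erythroid markers lower. In all 7 Kupffer cell and all 5 erythroid markers tested, the 24 h arrays lay below those of sham. The part of these markers in the values of the members was not tested.

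As deposited, the median change was largest at 24 h, while with the bacterial controls it was 0.52 at 4 h and 0.17 at 24 h. Less the median of all tested probe sets it was 0.10 at 4 h and 0.43 at 24 h under either scaling. As deposited, the 4 h value was 0.052 without the first sham array and 0.18 without the second, and the 24 h value was 0.36 and 0.49. At 1 h 0 of 60 members were called (1.45% of all tested probe sets), 0 had an unadjusted p under 0.05 in the limma fit (12% of all tested did), and the median log2 change was -0.01. At 4 h 0 members were called (background 4.38%), 4 had an unadjusted p under 0.05 where 17.4% of all tested did, and the median was 0.07. At 8 h 0 were called (background 3.54%), 11 had an unadjusted p under 0.05 where 18.6% of all tested did, and the median was 0.16. At 8 h 46 of 60 members were above 0 as deposited, against 40.4% of all tested probe sets, but 3 were with the bacterial controls, where the median of the members was -0.47 and lay 0.25 above that of all tested probe sets. As deposited, in 31 members both 8 h arrays lay above both sham arrays, against 18.3%. The group mean as deposited was highest at 24 h in 46 members, at 8 h in 12, at 4 h in 1, at 1 h in 1 and in sham in 0. It was lowest in sham in 18 members and at 1 h in 24. These counts are not given for all tested probe sets or with the bacterial controls. The 4 comparisons share the sham arrays.

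**Figure D1:**
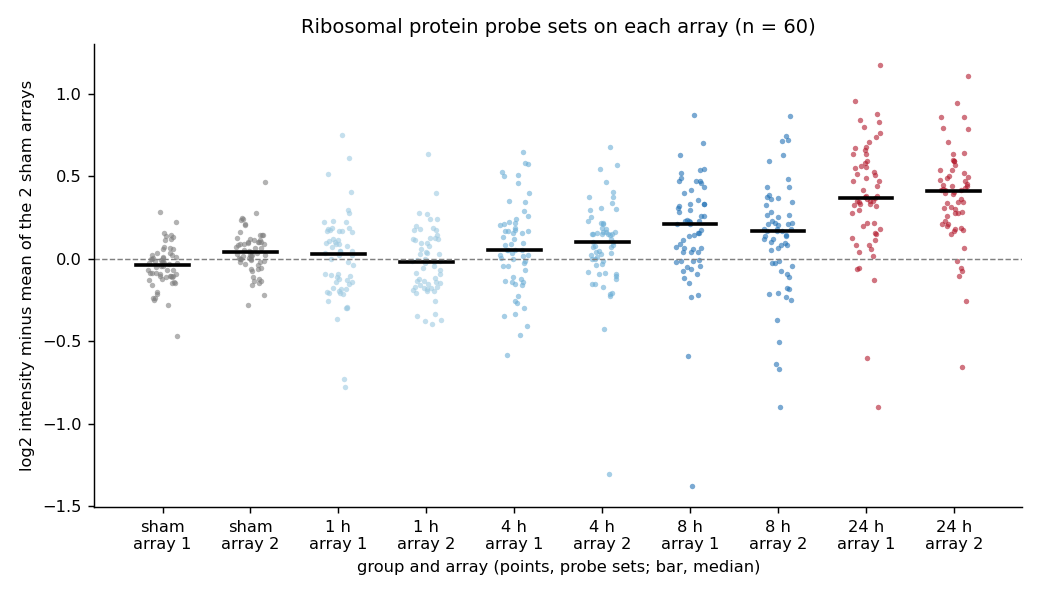
Log2 intensity of the 60 tested ribosomal protein probe sets on each of the 10 arrays, less the mean of that probe set on the 2 sham arrays. Points are probe sets and bars are medians, which lie at 0.37 and 0.41 on the 24 h arrays, at 0.21 and 0.17 on the 8 h arrays and within 0.1 of 0 on the others.

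In the plot of each member on each array, the medians of both 24 h arrays were the highest and those of both 8 h arrays came next. At 24 h 55 and 54 of the 60 members lay above their sham mean, and at 8 h 45 and 42 did. The sham arrays differ from each other as well, with 21 and 39 members above the sham mean.

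The protein of the large subunit with the largest increase was Rpl3, which lies near the peptidyl transferase centre. Its probe set X62166cds_s_at read 2769.5 and 2726 in sham, 2792 and 2575 at 1 h, 4098 and 3389 at 4 h, 3452 and 2659 at 8 h and 6204 and 5915 at 24 h. The arrays of 24 h were far above all others and those of 4 h lay above sham, while 1 of the 8 h arrays was with sham and the other among the 4 h arrays. The 24 h change was 2.2-fold (log2 change 1.14, SE 0.19, n = 2 and 2, limma adjusted p = 0.0118). The other probe set of Rpl3, rc_AA892367_i_at, read 5449.8 and 10413 in sham and 12773 and 13011 at 24 h, a log2 change of 0.78 (SE 0.30) that did not pass (limma adjusted p = 0.158). Both 24 h arrays lay above all others there too, but the sham arrays differed widely from each other.

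Rpl4, which reaches into the tunnel through which the new peptide leaves, read 2361 and 2755 in sham, 2861 and 2784 at 1 h, 3511 and 3528 at 4 h, 2657 and 2706 at 8 h and 4166 and 4902 at 24 h. Both 24 h arrays were the highest, both 4 h arrays came next, and the 8 h arrays lay within the sham range. The change at 24 h was 1.77-fold (log2 change 0.82, SE 0.16, n = 2 and 2, limma adjusted p = 0.0208). Rpl6, another protein of the large subunit, read 3503 and 3529 in sham, 2731 and 2705 at 1 h, 3507 and 4088 at 4 h, 3179 and 2719 at 8 h and 5564 and 5469 at 24 h on S71021_s_at. Here the 1 h and 8 h arrays lay below both sham arrays and the 24 h arrays above all others. It was 1.57-fold higher at 24 h than in sham (limma adjusted p = 0.0454), and its other probe set, rc_AA799672_s_at, showed 1.5-fold without passing (limma adjusted p = 0.151).

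Rpl13a, which also has a role outside the ribosome in silencing inflammatory mRNAs, read 682 and 662 in sham, 760.2 and 583 at 1 h, 777 and 604 at 4 h, 819 and 756 at 8 h and 1307 and 1164 at 24 h on rc_AA891713_at. Only the 24 h arrays stood apart, above all 8 others, for a 1.84-fold change (limma adjusted p = 0.0369). On rc_AI012805_at the 24 h arrays, at 3396 and 3352, also lay above every other array, but 1 of the 8 h arrays came close to them at 3317, and the change of 1.38-fold did not pass (limma adjusted p = 0.135).

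Rpl36 and Rpl27a were called too and were named after their values were seen. Rpl36 read 3493 and 3213 in sham, 4475 and 4322 at 8 h and 5194 and 5045 at 24 h, with every burn array above both sham arrays (1.53-fold at 24 h, limma adjusted p = 0.0376). Rpl27a read 7331 and 7561 in sham, 8693 and 8565 at 8 h and 10926 and 11273 at 24 h, which was 1.49-fold (limma adjusted p = 0.0470). In both genes the 8 h arrays lay between sham and 24 h without overlap. Rpl23, which carries the contact for the assembly factor Eif6, read 7174 and 7651 in sham and 11092 and 10764 at 24 h on X58200mRNA_g_at and missed the threshold (1.48-fold, limma adjusted p = 0.0535). Rpl14, again chosen after its values were seen, read 579 and 776 in sham and 1200 and 1097 at 24 h and missed it as well (1.71-fold, limma adjusted p = 0.0508).

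**Figure D2:**
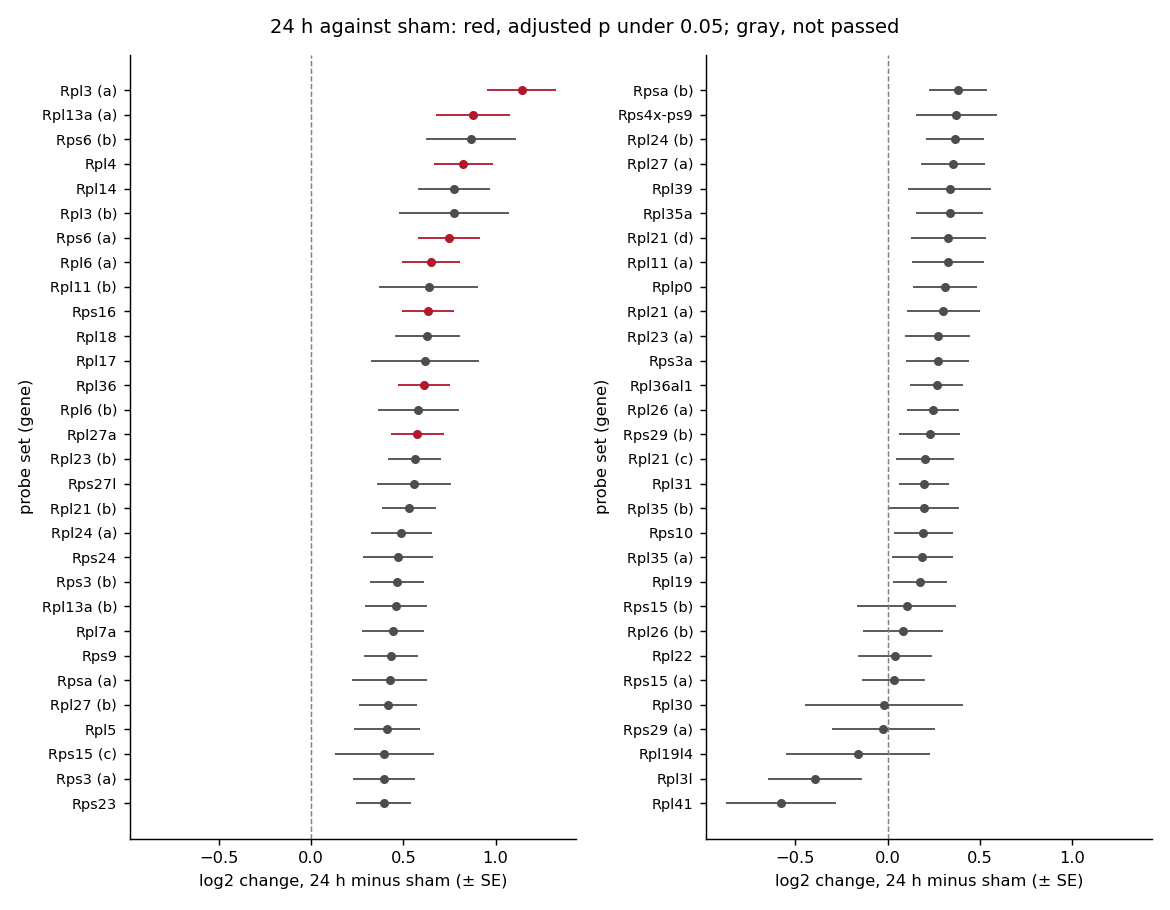
Log2 change from sham to 24 h of each of the 60 tested ribosomal protein probe sets, with the standard error of the fit, ordered by size from the upper left to the lower right. Letters in brackets tell apart probe sets of 1 gene, red points passed an adjusted p under 0.05, and 5 probe sets lie below 0.

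Over the large subunit, 6 of 41 tested probe sets were called higher at 24 h than in sham, with a median log2 change of 0.36. Over the small subunit 2 of 19 were called higher, with a median of 0.40. Of all tested probe sets 3.96% were called higher, and their median was -0.05. The difference between the subunits was not tested.

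In the small subunit, Rps6 carries the sites that S6 kinase phosphorylates when growth signals are active. On M29358_at it read 1218 and 1369 in sham, 1381 and 1456 at 1 h, 1862 and 1588 at 4 h, 1600 and 1619.6 at 8 h and 2004 and 2345 at 24 h. Every burn array lay above both sham arrays and the 24 h arrays lay above all others, a 1.68-fold change at 24 h (log2 change 0.75, SE 0.17, n = 2 and 2, limma adjusted p = 0.0332). The other probe set, M29358_g_at, read 2682 and 2225 in sham and 4480.3 and 4432 at 24 h (1.82-fold, limma adjusted p = 0.0685, not passed), and there the 1 h and 4 h arrays reached 3736 and 3651. Rps16, whose tail touches the tRNA at the decoding site, read 6929.5 and 7337 in sham, 7247 and 7624 at 1 h, 8100.1 and 8120.4 at 4 h, 8977 and 8508 at 8 h and 11399.7 and 10738 at 24 h. The arrays of sham and 1 h overlap, those of 4 h, 8 h and 24 h lie above them in separate steps, and the 24 h change was 1.55-fold (limma adjusted p = 0.0326).

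Rps3, at the entry of the mRNA channel, read 6660.2 and 6648 in sham, 5754 and 6049 at 1 h, 7039 and 7127 at 4 h, 6599 and 5729 at 8 h and 9482 and 8887 at 24 h on X51536cds_g_at. Its 24 h arrays were the highest of all, yet against sham it did not pass (1.38-fold, limma adjusted p = 0.0995). Rpsa, known outside the ribosome as a laminin receptor, read 3459.8 and 4094 in sham and 4869 and 4937 at 24 h on D25224_g_at (1.3-fold, limma adjusted p = 0.177). The stalk protein Rplp0, often used as a reference gene, read 9663 and 10609 in sham, 11194 and 11366 at 8 h and 12898 and 12257 at 24 h (1.24-fold, limma adjusted p = 0.326). In Rpsa and Rplp0 the 24 h arrays lay above both sham arrays without passing the test.

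Between 8 h and 24 h, 6 members were called higher and 1 lower, and the median log2 change was 0.21. Of all tested probe sets 5.88% were called higher and 6% lower in that step, so the share of members called, 7 of 60, is near the background of 11.9%. With each array divided by its median, 0 members were called higher and 1 lower in that step, and the share of all tested called was not counted. The direction was less even: 47 of 60 members were above 0 against 55.3% of all tested probe sets, and in 40 both 24 h arrays lay above both 8 h arrays against 30.9%. Both probe sets of Rpl6 rose (1.88-fold on S71021_s_at, adjusted p = 0.0132, and 2.04-fold on rc_AA799672_s_at, limma adjusted p = 0.0258). Rpl3 on X62166cds_s_at (log2 change 1.00, limma adjusted p = 0.0160), Rpl4 (1.69-fold, limma adjusted p = 0.0252) and Rps3 on X51536cds_g_at (1.49-fold, limma adjusted p = 0.0484) rose as well.

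Rpl17, another protein of the exit tunnel, had the largest increase of that step. It read 583 and 394 in sham, 509 and 437 at 1 h, 434 and 699 at 4 h, 319 and 308 at 8 h and 833 and 651 at 24 h. Both 8 h arrays were the lowest of the 10 and both 24 h arrays were above all but 1 array of 4 h, and the change from 8 h to 24 h was 2.35-fold (log2 change 1.23, SE 0.29, n = 2 and 2, limma adjusted p = 0.0382). Against sham Rpl17 did not pass at 24 h (1.54-fold, limma adjusted p = 0.244).

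Rpl41, a very short protein that bridges the subunits, was the member called lower in that step. It read 874 and 1068 in sham, 1280.3 and 986 at 1 h, 728 and 1082 at 4 h, 1575 and 1759 at 8 h and 518 and 808 at 24 h. The 8 h arrays were the highest of all 10 and 24 h held the lowest array, and from 8 h to 24 h it fell 2.57-fold (log2 change -1.36, SE 0.30, n = 2 and 2, limma adjusted p = 0.0277). Its log2 change at 24 h against sham was -0.58 (SE 0.30, limma adjusted p = 0.284), the lowest of the 60 members, with both 24 h arrays below both sham arrays. The pancreatic acinar sum given above was also higher at 8 h than at 4 h and 24 h, and 14 of 18 tested genes of that list were called lower at 24 h than at 8 h. That sum was highest at 1 h, at 48616 and 51576, where both arrays of Rpl41 lay below its 8 h arrays. The part of that list in the change of Rpl41 was not tested.

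From 4 h to 8 h, 1 member was called higher (background 3.33%) and 0 lower (background 4.83%), and 7 had an unadjusted p under 0.05 in the limma fit where 23.2% of all tested did. The called one was Rps29, a short zinc-binding protein of the small subunit. On rc_AA965264_at it read 14748 and 14349.9 in sham, 17859.6 and 16384 at 1 h, 14291 and 12617 at 4 h, 21101 and 23986 at 8 h and 15734 and 18485 at 24 h. The 8 h arrays lay above all others and the 4 h arrays were the lowest, a 1.68-fold step (log2 change 0.75, SE 0.17, n = 2 and 2, limma adjusted p = 0.0397). With the bacterial controls its direction turned (log2 change -0.33, SE 0.28, limma adjusted p = 0.308). Under that scaling 51 members were called lower in this step and 0 higher, and the share of all tested probe sets called was not counted. The median log2 change of all tested probe sets was then -1.135, and that of the members, -1.008, lay 0.127 above it. On X59051cds_s_at Rps29 read 11959.8 and 18301 at 4 h and 22878 and 25537 at 8 h, where the step of 1.63-fold did not pass (limma adjusted p = 0.185). In this step 13 of 18 pancreatic acinar genes were called higher, and their part in the change of Rps29 was not tested.

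The other members whose group mean was highest at 8 h were named after their values were seen. Besides both probe sets of Rps29 and Rpl41 they were Rpl39, Rpl35a, Rpl36al1, Rpl22, Rpl30, Rps10 and Rps4x-ps9, with 1 probe set each of Rpl26 and Rps15. The lead was slight in Rpl22 (log2 mean 12.6 at 8 h and 12.575 at 24 h) and in Rps15 (10.878 and 10.875). It was slight too in Rpl30 (8.1 at 8 h and 8.099 in sham), so these are not read as peaks. Rpl39, a short protein that lines the exit tunnel, read 1944 and 1608 in sham, 2974 and 2086 at 1 h, 2513 and 1999.8 at 4 h, 3239 and 2903 at 8 h and 2221 and 2247 at 24 h. At 8 h it lay above both sham arrays by 1.73-fold without passing (limma adjusted p = 0.117), and at 24 h it was back within the range of the 1 h and 4 h arrays. From 1 h to 4 h, 0 members were called (background 5.02%), 2 had an unadjusted p under 0.05 in the limma fit where 18.5% of all tested did, and the median was 0.09.

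**Figure D3:**
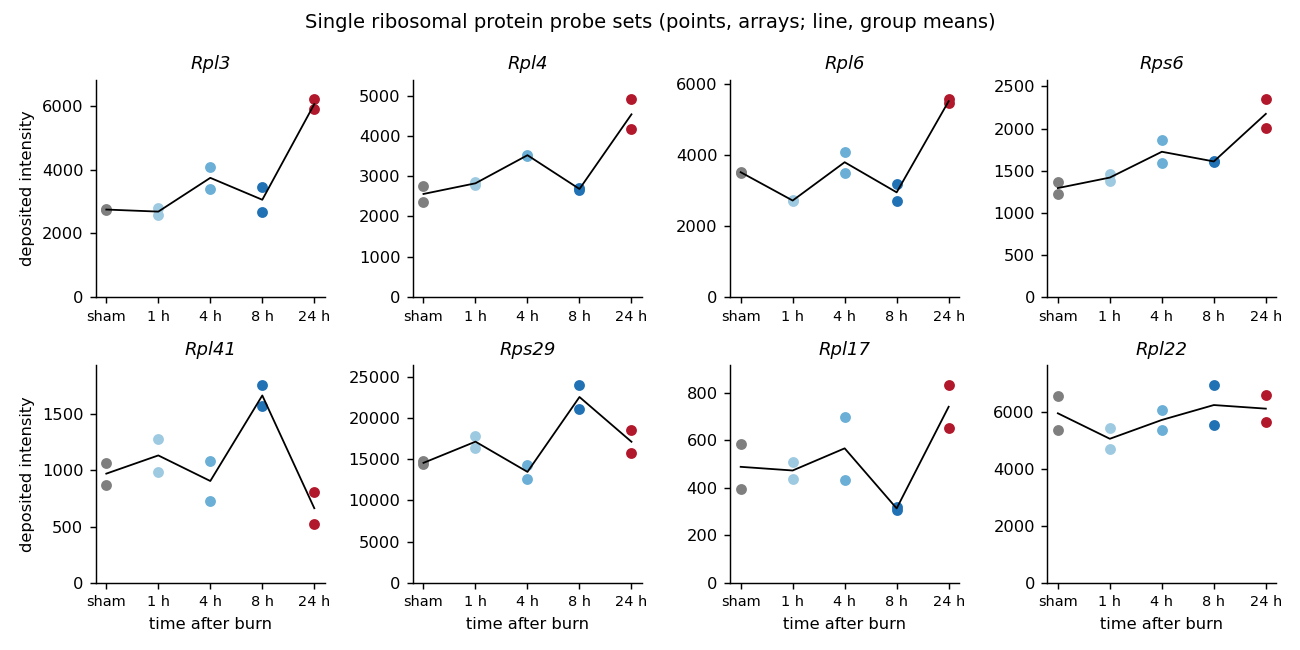
Deposited intensity of 8 ribosomal protein probe sets over the 5 groups on linear axes that start at 0, with 1 point per array and a line through the group means (Rpl6, Rpl3, Rps6 and Rps29 by the probe sets S71021_s_at, X62166cds_s_at, M29358_at and rc_AA965264_at). Rpl3, Rpl4, Rpl6 and Rps6 are highest at 24 h, Rpl41 and Rps29 at 8 h, Rpl17 is lowest at 8 h and Rpl22 stays level.

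The F test over the 4 burn times called 3 of 60 members, beside 15.4% of all tested probe sets, and 22 members had an unadjusted p under 0.05 in the limma fit, beside 1684 of all 5254. They were Rpl3 on X62166cds_s_at (limma adjusted p = 0.0213), Rpl6 on S71021_s_at (limma adjusted p = 0.0250) and Rpl4 (limma adjusted p = 0.0432). Rpl13a on rc_AA891713_at (limma adjusted p = 0.0687), Rpl23 on X58200mRNA_g_at (limma adjusted p = 0.0810) and Rps16 (limma adjusted p = 0.0811) came next.

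Other members differed little between groups. Rpl22, which is also known to bind viral RNA, read 6551 and 5362 in sham, 5427 and 4694 at 1 h, 5374 and 6072 at 4 h, 6947 and 5547 at 8 h and 6602 and 5638 at 24 h. Every burn group overlaps sham, while both 1 h arrays lay below those of 8 h and 24 h. The 24 h log2 change of Rpl22 was 0.04 (SE 0.20, limma adjusted p = 0.934). Rpl31, whose start holds the most motif matches, read 8105 and 8388 in sham and 9574 and 9344 at 24 h (log2 change 0.20, SE 0.14, limma adjusted p = 0.434), and its 24 h arrays were the highest of the 10. Rps15, at the head of the small subunit, read 4601 and 3940 in sham and 4511 and 4217 at 24 h on E01534cds_s_at (log2 change 0.04, SE 0.17). The groups of Rpl35 at the tunnel exit overlapped too, at 2966 and 3349 in sham and 3245 and 3977 at 24 h on M34331_at (log2 change 0.19, SE 0.16). Rpl21 on M27905_at also had a narrow range, from 2319.6 and 2561 in sham to 2657 and 3394 at 24 h. A change of 0.39, the median of the members, lies within about 2 standard errors of the estimate in Rpl22 and Rpl35.

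Copies and relatives of ribosomal protein genes gave mixed values. Rpl3l read 196 and 226 in sham and 192 and 133 at 24 h on its tested probe set (log2 change -0.39, SE 0.26, limma adjusted p = 0.406), and the 24 h arrays lay below both sham arrays. Rpl19l4, named as a copy of Rpl19, had the widest range of group means of all members. It read 409 and 329 in sham, 379 and 571 at 1 h, 434 and 273 at 4 h, 141 and 197 at 8 h and 242 and 445 at 24 h. Its lowest arrays were those of 8 h, and its arrays of 1 group differed widely at 1 h, 4 h and 24 h. Rps27l, a relative of Rps27 known as a target of p53, read 1499 and 1497 in sham and 2383 and 2044 at 24 h (1.47-fold, limma adjusted p = 0.132), with both 24 h arrays above sham. Ribosomal protein genes have many processed pseudogenes, so a probe set can read more than 1 of these genes. Of the 39 tested probe sets with several symbols, 5 were called higher at 24 h and 0 lower, 37 were above 0, and the median was 0.47. Among all tested probe sets 3.96% were called higher, 6.4% were called lower and 46.5% were above 0.

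Genes with more than 1 tested probe set were compared within the arrays. Many of these probe sets share 1 sequence entry, as M29358_at and M29358_g_at of Rps6 do, so they are not independent readings. With 55 of 60 members above 0 at 24 h, the same sign was also likely beforehand in most genes. At 24 h the probe sets had the same sign in 14 of 15 such genes, and the gap between the highest and the lowest log2 change had a median of 0.17. Rps29 was the exception, at -0.02 and 0.23. Rpl35 (0.19 and 0.20), Rpsa (0.38 and 0.43), Rpl27 (0.36 and 0.42), Rps3 (0.40 and 0.46), Rpl6 (0.58 and 0.65) and Rps6 (0.75 and 0.87) were the closest. Of these, all but Rpl6 are pairs on 1 sequence entry. The widest gaps were in Rpl13a (0.46 and 0.88), Rpl3 (0.78 and 1.14) and Rps15 (0.04 to 0.40 over 3 probe sets). Rpl21 ran from 0.20 to 0.53 over 4 probe sets, Rpl11 from 0.33 to 0.64, Rpl23 from 0.27 to 0.56, Rpl24 from 0.36 to 0.49 and Rpl26 from 0.08 to 0.25. At 1 h, by contrast, signs were the same in 7 of the 15 genes, at 4 h in 9 and at 8 h in 11. With 1 probe set per gene, the one with the highest mean, 4 of 42 genes were called higher at 24 h. Of all tested probe sets 3.96% were called higher, and the median of the 42 genes was 0.38.

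The machinery that makes and uses ribosomes was read from 7 lists of genes. In factors of ribosome assembly and the nucleolus, where ribosomal RNA is made, the median log2 change at 24 h was 0.85. Of their 14 tested genes 4 were called higher (3.96% of all tested probe sets) and 0 lower (6.4%). They were Nop58 (3.12-fold), which holds the RNAs that guide ribosomal RNA methylation, nucleolin or Ncl (2.03-fold), the nucleolar GTPase Gnl3 (2.02-fold) and, named after its values were seen, Mybbp1a (4.24-fold), with limma adjusted p of 0.0175, 0.0201, 0.0246 and 0.0078. At 4 h 2 of the 14 were called higher, Nop58 (3.55-fold, limma adjusted p = 0.0186) and Gnl3 (2.86-fold, limma adjusted p = 0.00801), with a list median of 0.96, where 2.38% of all tested probe sets were called higher. At 8 h the median was -0.34. In 10 of the 14 genes both 24 h arrays lay above both sham arrays, against 24.5% of all tested probe sets. In 3 both lay below, against 29.3%. Those 3, named after their values were seen, were Ubtf, Polr1d and Polr2f. Ubtf read 210 and 171 in sham and 61.2 and 97 at 24 h.

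Ncl shows these times array by array. It read 1041 and 1102 in sham, 820 and 1181 at 1 h, 1976 and 2037 at 4 h, 794 and 840 at 8 h and 2209 and 2147 at 24 h. The 4 h and 24 h arrays lay far above all others and the 8 h arrays below both sham arrays. As deposited, the ribosomal proteins did not share the fall from 4 h to 8 h as a group. In that step 36 of 60 members were above 0, and 24, with both probe sets of Rpl6, were below. Of all 5254 tested probe sets 2326 were above 0. The median of the members was 0.07, against -0.07 for all tested probe sets. With the bacterial controls these medians were -1.008 and -1.135, so the direction in the members depends on the scaling. From 4 h to 8 h 4 genes of the list were called lower (4.83% of all tested probe sets), and from 8 h to 24 h 5 were called higher (5.88%). In the same steps 13 of 18 pancreatic acinar genes were called higher and 14 of 18 lower, and their part in the change of the list was not tested. Of the 4 genes of the list called at 24 h against sham, 0 were called without the second sham array, 1 without the first 24 h array and 2 without the second.

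Initiation factors, which bring the mRNA and the first tRNA to the small subunit, had a median log2 change of 0.69 at 24 h. Of their 15 tested genes 5 were called higher (3.96% of all tested probe sets) and 0 lower (6.4%). The 1 gene below 0 was Eif4a2, named after its values were seen, at 3235 and 2820 in sham and 2470 and 2308 at 24 h. Eif2s1, the subunit of Eif2 whose phosphorylation shuts down translation under stress, read 543 and 558 in sham, 542 and 523 at 1 h, 839 and 817 at 4 h, 516 and 556 at 8 h and 959 and 1005 at 24 h and was 1.78-fold higher at 24 h (limma adjusted p = 0.0128). Eif3d (1.61-fold, limma adjusted p = 0.0257) and Eif2b4 (1.89-fold, limma adjusted p = 0.0270) were called too, and so were Eif3m and Eif2b2, named after their values were seen. Both 24 h arrays of Eif2s1 lay above all others, with the 4 h arrays next. Without either sham array or either 24 h array, 0 initiation factors were called.

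**Figure D4:**
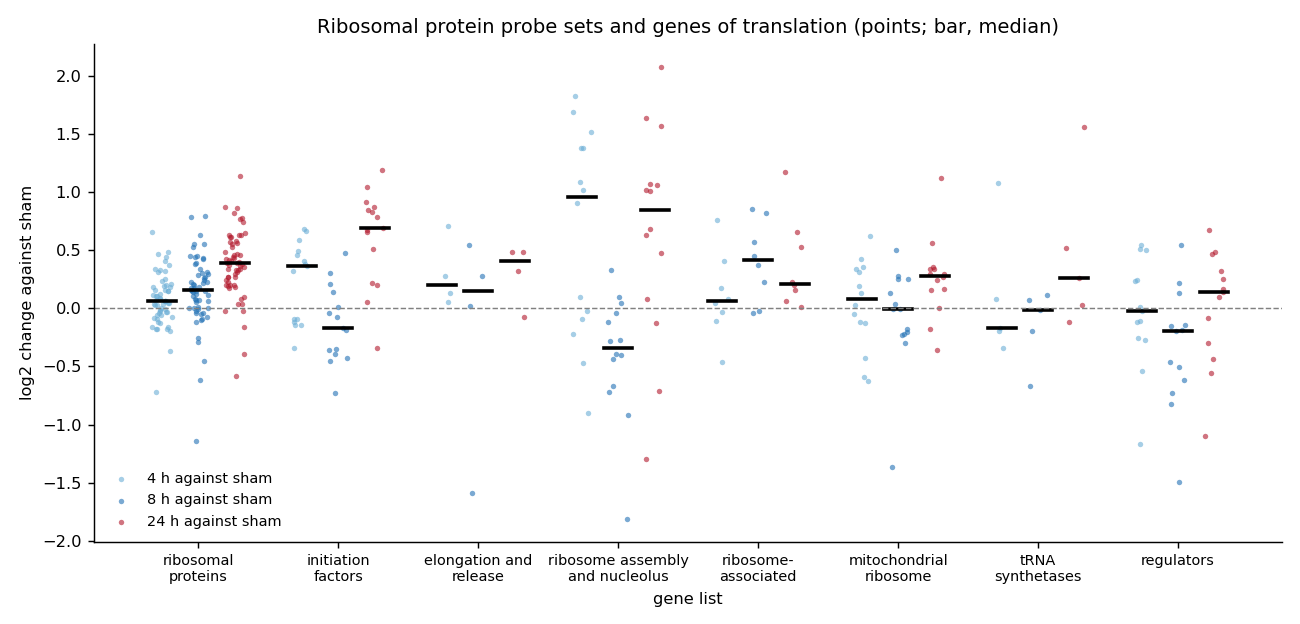
Log2 change against sham at 4, 8 and 24 h of the 60 ribosomal protein probe sets and of 7 gene lists of translation, with 1 point per probe set or gene and the median as a bar. Medians of ribosomal proteins are 0.07, 0.16 and 0.39, and those of ribosome assembly are 0.96, -0.34 and 0.85.

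In the other lists 0 genes were called at 24 h against sham, where 3.96% of all tested probe sets were called higher and 6.4% lower. An unadjusted p under 0.05 in the limma fit was found for 25.7% of all tested probe sets. It was found for 2 of 4 elongation and release factors, 2 of 8 ribosome-associated proteins and 1 of 14 mitochondrial ribosomal proteins. Among tRNA synthetases it was found for 2 of 5 and among regulators for 1 of 13. Elongation and release factors (4 tested) had a median of 0.41 and their Eef2, which moves the ribosome along the mRNA, read 6127 and 6588 in sham and 9058 and 8758 at 24 h (1.4-fold, limma adjusted p = 0.157). Ribosome-associated proteins (8 tested) had a median of 0.22, and Rack1, a scaffold on the small subunit, was at 1.44-fold (limma adjusted p = 0.0602). Mitochondrial ribosomal proteins (14 tested) had a median of 0.28, tRNA synthetases (5 tested) 0.26 and regulators of ribosomal protein genes (13 tested) 0.14. Myc, which drives many genes of ribosome building, read 211 and 288 in sham, 677 and 437 at 1 h, 416 and 311 at 4 h, 141 and 212 at 8 h and 87.4 and 151 at 24 h. Its highest arrays were those of 1 h and its lowest was at 24 h, it passed the F test (limma adjusted p = 0.0317), and its log2 change at 24 h of -1.10 did not pass (limma adjusted p = 0.118).

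The calls at 24 h rest on few arrays and on the scaling. The share of all tested probe sets called was not counted in the other settings. With each array divided by its median instead, 2 members were called higher at 24 h. With the bacterial controls 0 were called, 45 of 60 members were above 0 and their median was 0.17. Relative to all tested probe sets, the members stood 0.43 higher as deposited and 0.43 higher with the bacterial controls, and 0.34 to 0.49 higher over 22 settings. Each of the 10 arrays lowered the count of calls at 24 h when left out: it was 0 without the first sham array or either 24 h array, 1 without the second sham array, 2 without either 8 h array, 3 without either 1 h array, and 4 and 5 without the first and the second 4 h array. For the step from 8 h to 24 h the count without 1 array ran from 0 to 6, and it was 0 without the second 8 h or the first 24 h array. With any 1 array left out, 0 members were called from 4 h to 8 h.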

How the data were processed

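Total RNA of whole rat liver was hybridised to 10 one-colour oligonucleotide arrays. The deposited intensity values are linear and the authors had scaled them to a shared trimmed mean (2% left out at each end), as the values show, while the sources used here do not name the software behind them. Gene symbols came from the platform's probe table, in which 7018 of 8799 probe sets have 1 symbol, 308 have several and 1473 are not listed.

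Values under the floor of 36.4, the median of the arrays' 25th percentiles, were raised to it and log2 was taken. The 59 control probe sets were left out, which was decided after the data were seen. All 5 groups were fitted in 1 limma model (limma 3.58.1, R 4.3.3, 5 residual degrees of freedom) over 5254 probe sets that were above their array's median on 2 or more arrays, with Benjamini-Hochberg adjustment over all of them. Comparisons set each burn time against sham, each time against the one before, and all burn times in an F test, and the script was tested on simulated data. The number of arrays limits the precision, and no batch is given in the labels.

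The members and gene lists were chosen with earlier results of these data known. Named are, per comparison, up to 6 called members in each direction whose arrays do not overlap, the 6 with the smallest F test p, the 4 with the widest and the 4 with the narrowest range of group means, genes with several probe sets, untested members and up to 3 genes per other list. Others are said to be chosen after their values were seen. Alternatives changed the scaling, the floor, the filter, the variance model, the probe set designs and the arrays used.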

Additional observations from a re-analysis of the deposited data

Results flagged for a closer look

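In 8 probe sets the response to burn differed between neighbouring times by a test of that difference itself, the contrast between times in the limma fit. From 4 h to 8 h this was Rps29 on rc_AA965264_at, with a log2 difference of 0.75 that turned to -0.33 with bacterial control scaling. From 8 h to 24 h the others were Rpl17 (1.23), Rpl6 on rc_AA799672_s_at (1.03) and on S71021_s_at (0.91), Rpl3 on X62166cds_s_at (1.00), Rpl4 (0.75), Rps3 on X51536cds_g_at (0.58) and Rpl41 (-1.36). Rpl41 was the member among these that fell. From 8 h to 24 h the 7 calls among 60 members stood beside 11.9% called among all tested probe sets. From 4 h to 8 h the 1 call among 60 stood beside 3.33% called higher and 4.83% called lower. Neither count is read as a result about the members.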

How the results depend on the processing

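Calls depend on the scaling, on the variance model and on single arrays, and 2 arrays a group leave 5 residual degrees of freedom. The share of all tested probe sets called was not counted in the alternative settings. The counts below therefore have no background beside them, and a rise or fall in them is not read as a result about the members. Of 173 recounts of called members, 113 stayed within 1.5 times of the reported count and 60 did not, and for changes past that the cause was not tested. The count at 24 h against sham, 8 as reported, was 2 with each array divided by its median, 14 with the floor at the 50th percentile, 16 with no filter, 23 with an intensity trend and robust variance, 4 with plain probe set designs alone, 0 with only the groups compared, 3 without the 1 h arrays, 0 with bacterial control scaling and 0 to 5 without 1 array. From 8 h to 24 h the 7 calls became 1, a lower one, with each array divided by its median, 16 with the trend, 3 with plain designs, 0 with only the groups compared and 0 to 6 without 1 array. From 4 h to 8 h the 1 call became 0 with quantile normalization and with only the groups compared. It was also 0 without the 1 h arrays and without any single array. It became 3 with the trend and 51 with bacterial control scaling, where Rps29 on rc_AA965264_at turned to -0.331. In that scaling the median of all tested probe sets from 4 h to 8 h was -1.135 and that of the members -1.008. The 3 calls of the F test became 0 with each array divided by its median or plain designs, 12 with the higher floor, 11 with no filter, 23 with the trend, 1 without the 1 h arrays, 18 with bacterial control scaling and 0 to 3 without 1 array. It was 0 without either 1 h array or either 24 h array. At 8 h the count of 0 became 1 with the higher floor, 2 with no filter, 3 with the trend and 2, both lower, with bacterial control scaling, and 0 without any single array. At 4 h it became 1 with the trend, from 1 h to 4 h 1 with the trend and 1 with bacterial control scaling, and at 1 h it stayed 0 in all settings run. The median log2 change of the members at 24 h ran from 0.17 to 0.44 over 22 settings and was above 0 in each.

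With the replicate number as a block, 8 members were called at 24 h against sham, 8 from 8 h to 24 h, 4 by the F test and 0 from 4 h to 8 h, where Rps29 lost its call. Rpl6 on S71021_s_at and Rpl27a at 24 h, and Rpl17 and Rps3 from 8 h to 24 h, lost theirs too. Same-numbered arrays correlated at 0.012 to 0.17 in their deviations, above 0 in all 10 pairs of groups and over 0.1 in 5. The labels give no pairing and these low correlations do not settle whether there is one, so the fit without the block was kept.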
